A study of Mus musculus with 24 samples.

Results

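The genes described here are 39 genes of the G2 phase of the cell cycle and of mitosis, chosen by name. On the array, 64 of the 41174 gene probes carried the name of a member or an older name for it, Cdc2a for Cdk1, Kntc2 for Ndc80 and Cdca1 for Nuf2. Of these probes 61 passed a filter on dim signal, and all 39 members were measured among the 24783 genes tested. They were measured in thymus of 15-week-old C57BL/6 mice of 4 genotypes, 6 mice each. The double knockout mice lacked both p27 (p27Kip1, the product of Cdkn1b) and stathmin (the product of Stmn1), the p27 knockout mice lacked p27, the stathmin knockout mice lacked stathmin, and the wild-type mice lacked neither. The labels give 3 females and 3 males per genotype but not which mouse was which, and they do not say how the alleles were made. Each array compared a thymus in the Cy5 channel with a shared Cy3 sample, fibroblast RNA pooled from all genotypes, and a log2 ratio above 0 means a higher level in thymus than in those fibroblasts. The study's title sets out to characterise how p27 and stathmin control cell proliferation in the animal.

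Cells entering mitosis are driven by Cdk1 bound to cyclin B, which p27 and its relatives restrain together with the kinases of earlier phases. Mitotic chromosomes are then aligned on a spindle of microtubules, whose turnover stathmin raises by destabilising them, and a checkpoint holds the sister chromatids together until every kinetochore is attached. Most of these genes are switched off in resting cells and transcribed together late in the cycle. In thymus their RNA is therefore carried mainly by dividing thymocytes of the outer cortex. In whole thymus RNA, fewer dividing cells and less RNA per dividing cell cannot be told apart.

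Promoters of late cell cycle genes are known for a cell cycle homology region (CHR), bound by the DREAM and MuvB complexes, and for CCAAT boxes, bound by NF-Y. RefSeq promoters on GRCm38.p6, from 250 bases before to 50 bases after the start of transcription, were matched by symbol to 33 of the 39 members, which had 35 promoters. The promoters of the 4 members that passed the test between double and p27 knockout thymus are shown, with that of cyclin B2 as a classical target of these factors. Letters of a CHR (TTTGAA or TTTAAA) and of a CCAAT box (CCAAT), on either strand, are in capitals.
Hmmr, chr11:40733388-40733687, minus strand: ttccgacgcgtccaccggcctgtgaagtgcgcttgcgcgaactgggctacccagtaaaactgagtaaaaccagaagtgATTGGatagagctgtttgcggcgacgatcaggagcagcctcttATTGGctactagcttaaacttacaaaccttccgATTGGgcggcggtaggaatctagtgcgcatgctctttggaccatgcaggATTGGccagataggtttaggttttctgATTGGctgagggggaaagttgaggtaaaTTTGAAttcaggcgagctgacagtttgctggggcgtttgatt
Anln, chr9:22389157-22389456, minus strand: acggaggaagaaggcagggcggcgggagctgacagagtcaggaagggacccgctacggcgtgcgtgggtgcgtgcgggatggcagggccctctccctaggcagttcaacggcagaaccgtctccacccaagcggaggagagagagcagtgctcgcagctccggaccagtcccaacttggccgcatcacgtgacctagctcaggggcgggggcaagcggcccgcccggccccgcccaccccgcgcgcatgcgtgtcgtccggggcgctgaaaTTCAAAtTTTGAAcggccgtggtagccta
Ttk, chr9:83834439-83834738, plus strand: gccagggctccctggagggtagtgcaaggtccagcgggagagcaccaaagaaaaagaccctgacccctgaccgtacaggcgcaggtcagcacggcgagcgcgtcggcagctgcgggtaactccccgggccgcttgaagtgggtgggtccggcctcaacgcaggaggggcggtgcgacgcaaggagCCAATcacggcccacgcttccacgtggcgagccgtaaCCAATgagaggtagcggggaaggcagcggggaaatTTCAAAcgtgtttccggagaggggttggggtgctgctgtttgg
Top2a, chr11:99024140-99024439, minus strand: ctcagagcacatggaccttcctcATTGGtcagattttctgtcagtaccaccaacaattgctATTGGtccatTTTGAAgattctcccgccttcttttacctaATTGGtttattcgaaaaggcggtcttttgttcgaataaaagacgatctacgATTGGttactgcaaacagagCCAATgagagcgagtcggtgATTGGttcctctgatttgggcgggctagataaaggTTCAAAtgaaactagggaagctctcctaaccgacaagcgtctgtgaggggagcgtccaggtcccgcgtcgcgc
Ccnb2, chr9:70421505-70421804, minus strand: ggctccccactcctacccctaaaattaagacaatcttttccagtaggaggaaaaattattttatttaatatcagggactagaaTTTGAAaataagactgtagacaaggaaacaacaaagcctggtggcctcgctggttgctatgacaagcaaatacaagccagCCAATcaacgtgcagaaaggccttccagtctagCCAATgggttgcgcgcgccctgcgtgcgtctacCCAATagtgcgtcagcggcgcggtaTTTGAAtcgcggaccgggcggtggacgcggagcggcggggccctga

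A CHR was found in 77.1% of the 35 member promoters (27) and in 27.6% of the 32841 promoters of the table. It lay wholly within 50 bases of the start in 71.4% of member promoters (25), against 8.27% of all promoters. A CCAAT box was found in 77.1% of member promoters and 37.4% of all promoters, and both elements in 68.6% and 10.7%. By contrast, an E2F element (TTTCCCGC, TTTGGCGC, TTTGCCGC or TTTCGCGC), typical of genes of the G1 to S transition, was in 2.86% of member promoters and 2.27% of all promoters. All 5 promoters printed above held at least 1 CHR. No motif contains another, although neighbouring matches can share bases at their ends, and TTTAAA, which reads the same on both strands, was counted once. A match is a string of letters and not a measured binding site.

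**Figure D1:**
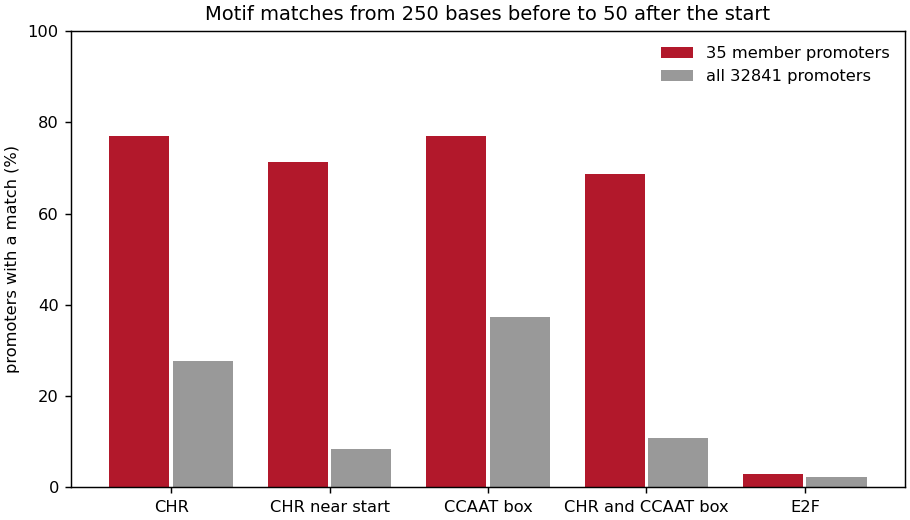
Share of promoters (vertical axis, in percent) with a match to each motif, in the 35 member promoters (red bars) and in all 32841 promoters (grey bars). The CHR near the start was in 71.4% of member promoters and 8.27% of all promoters, and the E2F shares were 2.86% and 2.27%.

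The arrays differed in ways that touch these genes. The probes of the targeted genes did not all follow the labels alike. The brightest Cdkn1b probe averaged -0.50 ± 0.88 in the double knockout (n = 5) and 0.30 ± 0.57 in the p27 knockout (n = 6), against 1.64 ± 0.40 in the stathmin knockout (n = 6) and 1.80 ± 0.35 in wild type (n = 5). A further Cdkn1b probe averaged -0.65 ± 0.25 and -0.78 ± 0.21 in the double and p27 knockouts, against 0.49 ± 0.63 and 0.28 ± 0.39 in the stathmin knockout and wild type. The last Cdkn1b probe hardly separated the double knockout from wild type: it averaged -0.61 ± 0.45 and -0.99 ± 0.21 in the double and p27 knockouts, against -0.54 ± 0.47 and -0.50 ± 0.28 in the stathmin knockout and wild type (SD, n = 6 each). One Stmn1 probe averaged -3.19 ± 0.36 in the double knockout and -2.95 ± 0.75 in the stathmin knockout, against 2.45 ± 0.87 in p27 knockout thymus and 3.097 ± 0.28 in wild type (SD, n = 6 each). The brightest Stmn1 probe differed less, at 1.88 and 2.01 in the double and stathmin knockouts, against 2.81 and 3.54 in the p27 knockout and wild type. Whether these probes lie inside the deleted parts was not tested. The p27 knockout arrays were dim: the 99th percentile of Cy5 intensity averaged 86.4 (in units of 1000) there, against 248 in the double knockout, 239 in the stathmin knockout and 191 in wild type. Replicate 6 of the p27 knockout was the dimmest array (19.4) and replicate 5 the dimmest after it (50.7). On replicate 6 the median log2 ratio of 11 genes of double-positive thymocytes was 0.33, against 5.13 to 8.19 on the other 23 arrays, and that of 8 fibroblast genes was -1.19, against -3.95 to -1.90. Each of 6 slides held 1 array of every genotype, with the position on the slide fixed by genotype, so that an effect of position and one of genotype cannot be told apart.

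In thymus of every genotype most members were higher than in the fibroblast pool. The mean log2 ratio was above 0 for 38 of 39 members in the double knockout, 35 in p27 knockout thymus, 35 in the stathmin knockout and 37 in wild type. The median member stood at 1.20 in the double knockout, 1.14 in p27 knockout thymus, 1.12 in the stathmin knockout and 1.17 in wild type. The order of the genes was alike at its ends: Nusap1, which bundles spindle microtubules, had the highest mean in each genotype, at 3.01 ± 0.15 in the double knockout, 2.17 ± 2.14 in p27 knockout thymus, 3.04 ± 0.36 in the stathmin knockout and 3.11 ± 0.44 in wild type. Anln, the actin-binding scaffold anillin of the cleavage furrow, had the lowest, at -0.41 ± 0.23, -1.71 ± 1.05, -0.58 ± 0.53 and -0.68 ± 0.77 in the same genotypes (SD, n = 6 each). In wild type the members near the pool's level included the kinase Cdk1 at -0.14 ± 0.51, the transcription factor Foxm1 at 0.02 ± 0.31 and securin, Pttg1, at 0.02 ± 0.16. These ratios rank genes against the pool and give no order of abundance.

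The members scattered most in the p27 knockout. The median SD over the members was 0.81 in the p27 knockout, against 0.26 in the double knockout, 0.35 in the stathmin knockout and 0.38 in wild type. The member median per array lay between 0.97 and 1.49 in the double knockout, between -0.35 and 1.57 in p27 knockout thymus, between 0.79 and 1.55 in the stathmin knockout and between 0.82 and 1.59 in wild type. Replicate 6 of the p27 knockout was its genotype's lowest array for 30 of the 39 members. The other 5 arrays of the p27 knockout had member medians of 1.11 to 1.57, inside the range of wild type.

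**Figure D2:**
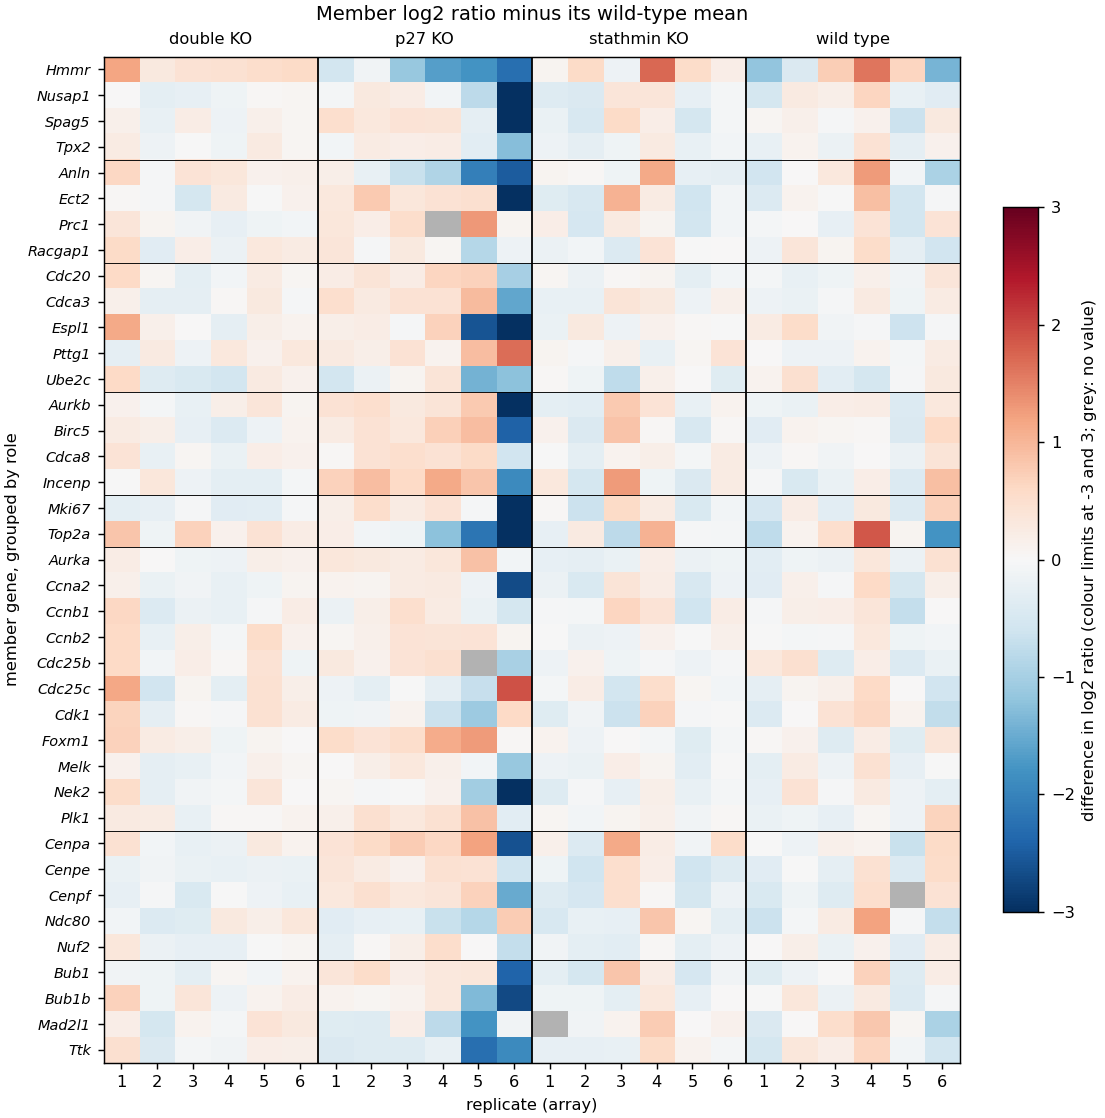
Log2 ratio of each member (rows, grouped by role) on each array (columns, replicates 1 to 6 of each genotype) minus the member's wild-type mean, as colour on a log2 scale. Replicate 6 of the p27 knockout stands apart in blue, where its member median was -0.35, and its replicate 5 is low for Hmmr, Anln, Ttk and Top2a and high for Foxm1.

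With both proteins missing, no mitotic gene passed the test against wild type. In double knockout against wild-type thymus 0 members passed limma's moderated test at an adjusted p under 0.05, beside 0.00404% of all genes called higher and 0.00807% lower. At an unadjusted p under 0.05 there were also 0 members, beside 3.66% of all genes higher and 1.07% lower. The changes were above 0 for 24 members (61.5%, against 44.4% of all genes) with a median of 0.05, and ran from -0.21 to 0.58. For 30 of the 39 members the 95% interval of the change lay within 1 log2 unit of 0 on either side. The fit used 1 spread per gene over all genotypes, so scatter among p27 knockout arrays also entered these intervals. The same spread served the comparisons of stathmin knockout thymus. With the dimmest and next dimmest p27 knockout arrays left out, only Hmmr and Top2a had intervals reaching beyond 1, up to 1.46 and 1.24. In double knockout against wild type that fit called 0 members, beside 0.157% of all genes higher and 0.0404% lower.

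The member with the lowest p in that comparison was Ccnb2, cyclin B2, which activates Cdk1. Its lowest, median and highest log2 ratios were 0.45, 0.84 and 1.28 in the double knockout and 0.55, 0.63 and 1.01 in wild type. The groups overlapped, and the change was 0.20 ± 0.15 (SE; limma adjusted p = 1.00). Cenpe, the kinesin that carries chromosomes along kinetochore fibres, spread little in the double knockout, with a lowest, median and highest value of 0.84, 0.87 and 0.96, against 0.66, 0.93 and 1.61 in wild type. Its change was -0.19 ± 0.22 (limma adjusted p = 1.00). Foxm1, which activates transcription of many of the other members, had -0.11, 0.15 and 0.70 in the double knockout and -0.37, 0.10 and 0.38 in wild type, with a change of 0.18 ± 0.20 (limma adjusted p = 1.00). The member of the largest change was Hmmr, whose product RHAMM binds spindle microtubules and hyaluronan, at 0.58 with a 95% interval from -0.34 to 1.50.

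Loss of stathmin alone also left every member short of the threshold. Stmn1 itself fell short too at its brightest probe, at -1.53 ± 0.52 (limma adjusted p = 0.9998). In a fit of every probe its other probe was called, at -6.04 ± 0.34 (limma adjusted p = 1.68e-10). In stathmin knockout against wild-type thymus 0 members were called, beside 0% of all genes in either direction. At an unadjusted p under 0.05 there were 0 members, beside 2.41% of all genes higher and 0.323% lower. The changes were below 0 for 24 members, against 54% of all genes, with a median of -0.06 and a range from -0.19 to 0.50. Nuf2, which with Ndc80 forms the kinetochore's grip on microtubules, had lowest, median and highest values of 0.04, 0.15 and 0.40 in the stathmin knockout and 0.02, 0.43 and 0.59 in wild type. Aurka, the Aurora kinase of spindle poles, had 0.36, 0.45 and 0.84 in the stathmin knockout and 0.31, 0.50 and 1.10 in wild type. Both pairs of groups overlapped, with changes of -0.19 ± 0.18 for Nuf2 and -0.14 ± 0.17 for Aurka (limma adjusted p = 1.00 for each). Hmmr had 0.01, 0.52 and 1.88 in the stathmin knockout and -1.25, 0.27 and 1.76 in wild type, and Cenpe had 0.46, 0.81 and 1.57 in the stathmin knockout and 0.66, 0.93 and 1.61 in wild type. These groups overlapped too, with changes of 0.50 ± 0.44 for Hmmr and -0.17 ± 0.22 for Cenpe (limma adjusted p = 1.00 for each).

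Double knockout against stathmin knockout thymus, which sets p27 loss against p27 presence where stathmin is missing, also gave 0 called members, beside 0% of all genes called higher and 0.00807% lower. At an unadjusted p under 0.05 there were 0 members, beside 0.738% of all genes higher and 0.553% lower. The changes were above 0 for 27 members, against 45.7% of all genes, with a median of 0.06, and ran from -0.20 to 0.33. By role, with no test between roles, 10 of the 11 genes that act at entry into mitosis had a change above 0. So did 4 of 4 cytokinesis genes, 4 of 5 of anaphase and mitotic exit and 3 of 4 spindle genes. Above 0 were also 2 of 4 checkpoint genes, 2 of 5 at the kinetochore and centromere and 1 of 4 chromosomal passengers. Of 2 genes of chromosome structure 1 was above 0. Cdc25b, a phosphatase that activates Cdk1, had lowest, median and highest values of 1.96, 2.21 and 2.69 in the double knockout and 1.93, 2.00 and 2.23 in the stathmin knockout, with a change of 0.24 ± 0.22 (limma adjusted p = 1.00). Foxm1 had -0.11, 0.15 and 0.70 in the double knockout and -0.36, -0.05 and 0.13 in the stathmin knockout, with a change of 0.27 ± 0.20 (limma adjusted p = 1.00). Both pairs of groups overlapped. Ccnb2 had 0.45, 0.84 and 1.28 in the double knockout and 0.50, 0.67 and 0.82 in the stathmin knockout, a change of 0.21 ± 0.15. Aurka had 0.49, 0.71 and 0.87 in the double knockout and 0.36, 0.45 and 0.84 in the stathmin knockout, a change of 0.19 ± 0.17 (limma adjusted p = 1.00 for each).

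Between p27 knockout and wild-type thymus 0 members passed the test, with changes on both sides of 0. At an unadjusted p under 0.05, 3 were higher and 4 lower. Over all genes tested 0% were called higher and 0.00807% lower. At an unadjusted p under 0.05 the shares of all genes were 20.8% higher and 8.2% lower. Cdkn1b itself was not called at its brightest probe, at -1.50 ± 0.34 (limma adjusted p = 0.0811). The median change of the members was -0.09 and that of all genes 0.14, and single members ran from -1.25 to 0.65.

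Foxm1 had the lowest p. Its lowest, median and highest log2 ratios were 0.06, 0.55 and 1.29 in p27 knockout thymus and -0.37, 0.10 and 0.38 in wild-type thymus. The difference was above 0 on 6 of 6 slides, as it was for 5.67% of all genes, although the groups overlapped, and came to 0.65 ± 0.20 (SE; limma adjusted p = 0.0811). Pttg1, the inhibitor of the protease that splits sister chromatids, had 0.14, 0.38 and 1.70 in p27 knockout thymus and -0.14, 0.00 and 0.27 in wild-type thymus. It too was above 0 on 6 of 6 slides, by 0.60 ± 0.21 (limma adjusted p = 0.0894). Prc1, which bundles microtubules of the spindle midzone, was the other member above 0 at an unadjusted p under 0.05, at 0.49 ± 0.23 (limma adjusted p = 0.158). The highest p27 knockout values of Pttg1 and Prc1, 1.70 and 1.34, lay on the dim replicate 5 or 6. Without those replicates the highest were 0.46 and 0.55. The changes were then 0.25 ± 0.15 for Pttg1 and 0.36 ± 0.22 for Prc1 (limma adjusted p = 0.423 and 0.437).

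The members below 0 at an unadjusted p under 0.05 were Ttk at -0.93, Hmmr at -1.25, Anln at -1.02 and Top2a at -1.13, with limma adjusted p values of 0.0848, 0.0894, 0.104 and 0.171. Ttk had lowest, median and highest values of -1.96, -0.11 and 0.07 in p27 knockout thymus and -0.26, 0.35 and 0.93 in wild-type thymus, and Hmmr had -2.12, -1.24 and 0.05 in p27 knockout thymus and -1.25, 0.27 and 1.76 in wild-type thymus. Both pairs of groups overlapped. Each of the 4 genes had its lowest p27 knockout value on the dim replicate 5 or 6. Without those replicates 30 of the 39 members were above 0, with a median of 0.26, while 63.2% of all genes were above 0. In that fit 0 members were called and 7 were higher and 0 lower at an unadjusted p under 0.05, beside 10.3% of all genes higher and 3.05% lower, led by Foxm1 at 0.65 ± 0.18 (limma adjusted p = 0.373) and Incenp, the scaffold of the chromosomal passenger complex, at 0.84 ± 0.29 (limma adjusted p = 0.373). Ttk, Hmmr, Anln and Top2a were not among these 7.

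Double knockout against p27 knockout thymus was the comparison in which members passed the test. Hmmr, Anln, Ttk and Top2a were higher in the double knockout, and 0 members were lower. These 4 of 39 members stand beside 9.76% of all genes called higher and 19.2% called lower, so the share of members called higher was near that of all genes. The median change of the members was 0.09 and that of all genes -0.16. Because this comparison and the one before share the p27 knockout arrays, their opposite signs for these genes are not independent.

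Hmmr was the member with the largest change. Its lowest, median and highest log2 ratios were 0.45, 0.64 and 1.33 in the double knockout and -2.12, -1.24 and 0.05 in the p27 knockout. All 6 double knockout values lay above all 6 p27 knockout values, which was so for 4.11% of all genes. The change was 1.83 ± 0.44 (SE), a 3.55-fold higher ratio, with a limma adjusted p of 0.00736, and it was above 0 on 6 of 6 slides, as for 11.3% of all genes. In the stathmin knockout Hmmr ran from 0.01 to 1.88, and in wild type from -1.25 to 1.76, so wild-type mice spanned the whole range of the double knockout and overlapped the p27 knockout.

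Anln had lowest, median and highest values of -0.71, -0.43 and -0.06 in the double knockout and -3.18, -1.46 and -0.50 in the p27 knockout. The groups overlapped at 1 end, and the change of 1.30 ± 0.39 was above 0 on 6 of 6 slides (limma adjusted p = 0.0195). Ttk, the kinase MPS1 that starts the spindle checkpoint, had -0.15, 0.34 and 0.76 in the double knockout and -1.96, -0.11 and 0.07 in the p27 knockout. Its change was 0.97 ± 0.32, above 0 on 6 of 6 slides (limma adjusted p = 0.0264). Top2a, the topoisomerase that untangles sister chromatids, had 2.20, 2.66 and 3.16 in the double knockout and -0.99, 1.66 and 2.54 in the p27 knockout. Its change was 1.49 ± 0.54, above 0 on 5 of 6 slides (limma adjusted p = 0.0428). In all 4 genes the double knockout values were close together, and the p27 knockout values were spread over a wide range with replicates 5 and 6 at the bottom.

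**Figure D3:**
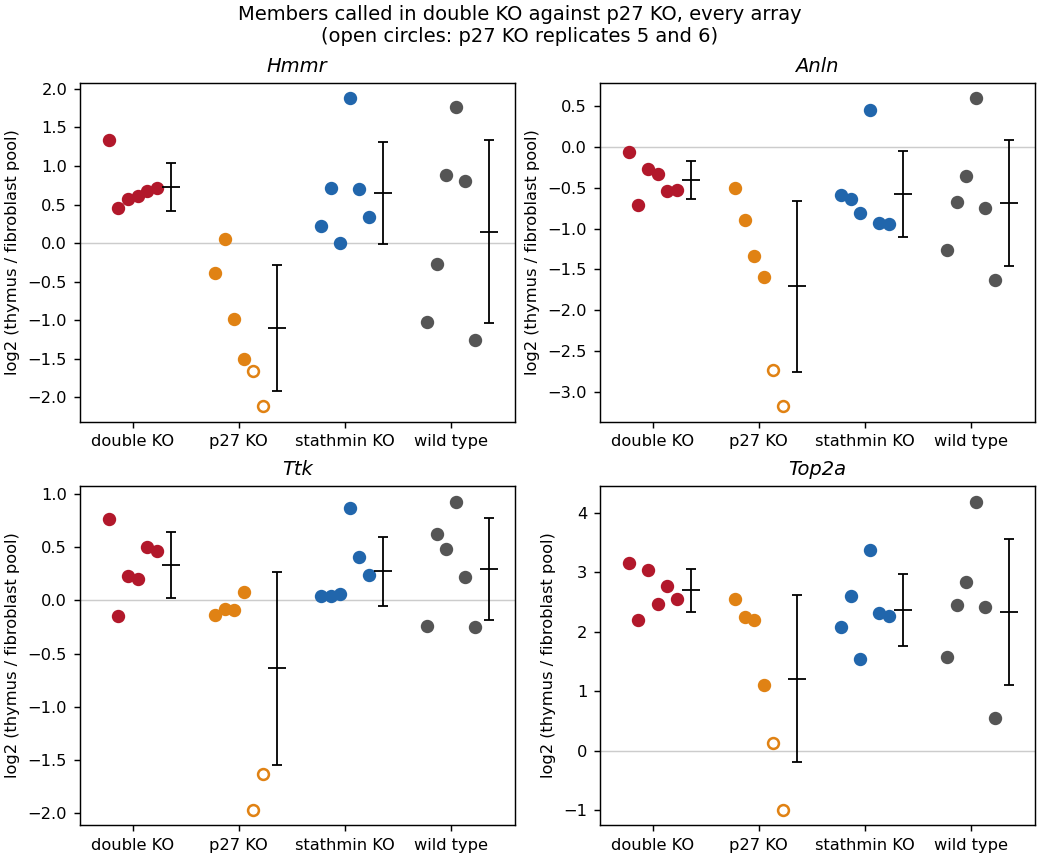
Log2 ratio of thymus over fibroblast pool (vertical axis) of Hmmr, Anln, Ttk and Top2a on every array, by genotype, with replicates 1 to 6 from left to right and the mean ± SD of 6 mice in black. Open circles are replicates 5 and 6 of the p27 knockout, the dimmest arrays, which hold its 2 lowest values of each gene, and the Hmmr values of double and p27 knockout do not overlap.

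How far the 4 calls stood depended on those arrays. Without p27 knockout replicates 5 and 6, Hmmr kept its call at 1.43 ± 0.47 (limma adjusted p = 0.0464), while Anln came to 0.67 ± 0.33, Ttk to 0.39 ± 0.22 and Top2a to 0.67 ± 0.47, with limma adjusted p values of 0.152, 0.213 and 0.311. In that fit 1 member was called lower, Incenp at -0.92 ± 0.29 (limma adjusted p = 0.0403), and 28 of 39 changes were below 0 with a median of -0.20. Over all genes that fit called 4.07% higher and 10.6% lower. With the log2 Cy5 brightness of each array as a covariate 0 members were called, the lowest limma adjusted p being 0.632, and Hmmr was 1.47 ± 0.60. That fit called 0% of all genes in either direction too. The Cy5 brightness behind that covariate ran, in the same units, from 200.2 to 320.0 over double knockout arrays and from 19.4 to 170.6 over p27 knockout arrays, so brightness and genotype cannot be told apart in this comparison.

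With slide as a block, Hmmr, Anln, Ttk and Top2a were called higher with limma adjusted p values of 0.00522, 0.0111, 0.0231 and 0.0345, and Foxm1 was called lower at -0.47 ± 0.18 (limma adjusted p = 0.0490), beside 10.9% of all genes called higher and 21.3% lower. Within slides the median difference of the members was 1.18 on slide 3, which holds replicate 6 of the p27 knockout, and between -0.25 and -0.03 on the other 5. Hmmr differed by 0.62 at least and 2.83 at most over the 6 slides, and Top2a by -0.08 at least and 4.02 at most.

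By role, the changes in the same comparison were as follows, with no test between roles. All 4 spindle genes (Hmmr, Nusap1, Spag5 and Tpx2) had changes above 0, with a median of 0.62, and so did all 4 checkpoint genes (Bub1, Bub1b, Ttk and Mad2l1), with a median of 0.69. At the kinetochore and centromere 4 of 5 genes were below 0 (median -0.10), and of the chromosomal passengers Aurkb, Birc5, Cdca8 and Incenp 3 of 4 were below 0 (median -0.13). Genes of entry into mitosis split into 6 above and 5 below 0. Of 4 cytokinesis genes, Anln among them, 3 were above 0 (median 0.23). Of 5 genes of anaphase and mitotic exit 2 were above 0 (median -0.10). Both genes of chromosome structure, Top2a and Mki67, were above 0 (median 0.79). Of all genes 41.3% were above 0. Without p27 knockout replicates 5 and 6, 1 of 4 spindle genes was above 0 (Hmmr at 1.43, with Nusap1 at -0.20, Spag5 at -0.36 and Tpx2 at -0.10), as were 3 of 4 checkpoint genes (Bub1 at -0.43), 1 of 5 at the kinetochore and centromere, 0 of 4 passengers and 3 of 11 genes of entry. Of the remaining roles, 1 of 4 cytokinesis genes, 1 of 5 of anaphase and exit and 1 of 2 of chromosome structure were above 0. In that fit 39.7% of all genes were above 0. On all arrays, the differences in the kinase complex itself were 0.40 for Cdk1, -0.0027 for Ccnb1 and -0.05 for Ccnb2, and none passed the test. Foxm1 at -0.47 and Pttg1 at -0.51 were below 0 with limma adjusted p values of 0.0757 and 0.0748.

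**Figure D4:**
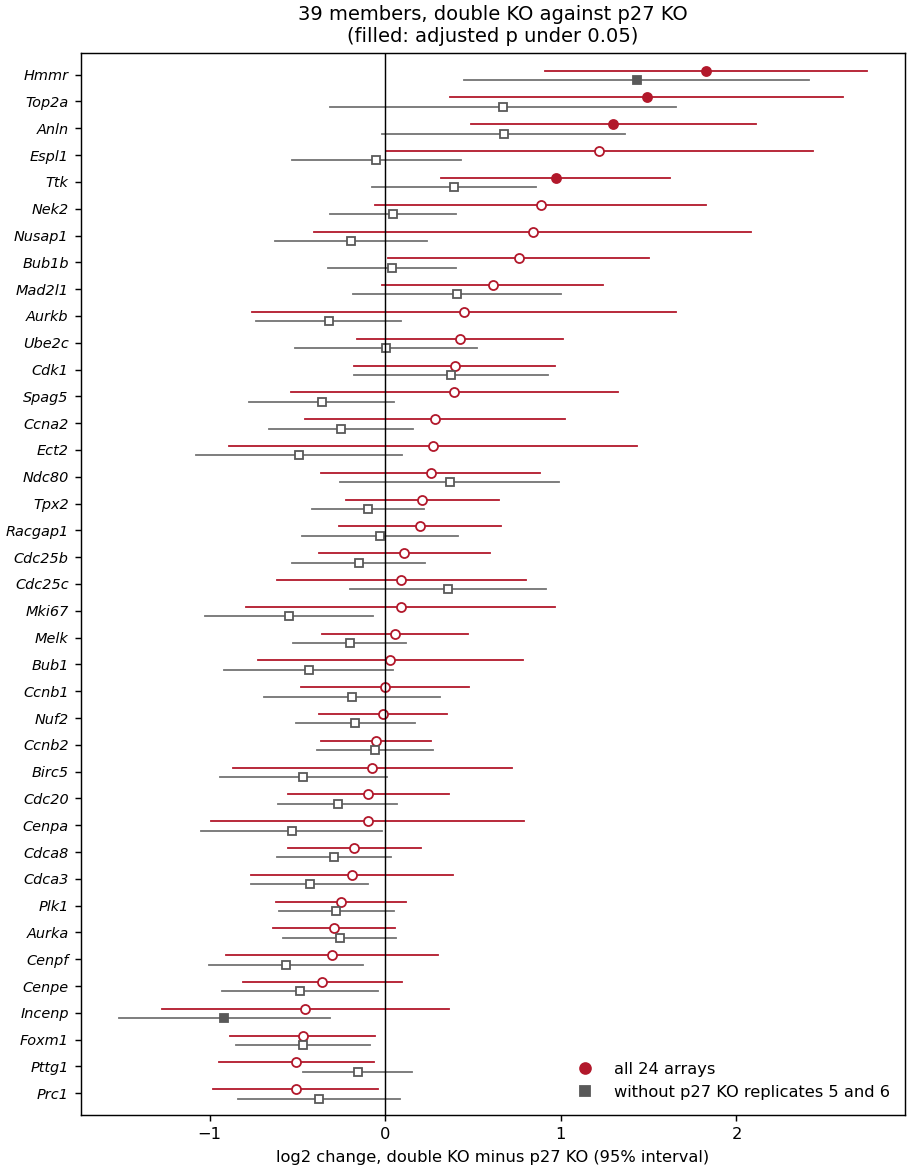
Log2 change of each of the 39 members (rows, ordered by the change) in double knockout minus p27 knockout, with its 95% interval, over all 24 arrays (red circles) and without p27 knockout replicates 5 and 6 (grey squares). Filled symbols passed the test: Hmmr, Top2a, Anln and Ttk on all arrays, Hmmr and Incenp without the 2 dim arrays.

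The interaction, which tests whether the effect of losing p27 differs with and without stathmin, was called for 0 members and for 0% of all genes in either direction. Ttk had the lowest p at 0.99 ± 0.45 (limma adjusted p = 0.264), followed by Anln at 1.19 ± 0.56 (0.268) and Hmmr at 1.33 ± 0.63 (0.272). At an unadjusted p under 0.05, 3 members were above 0 and 0 below, against 5.47% and 12.4% of all genes. The median over the members was 0.17. Pttg1 was at -0.58 ± 0.30 (0.297). Without p27 knockout replicates 5 and 6 the interaction was 0.41 for Ttk, 0.57 for Anln and 0.94 for Hmmr, and the member median was -0.14, with 26 of 39 below 0.

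Different probes of the same gene did not give the same answer. Of the members 17 had several probes that passed the filter, and the values above come from the brightest, whose mean Cy5 intensity had a median of 28322 units over the 39 members. The 22 other probes were dimmer, with a median of 1137 units and a highest of 52031. In double against p27 knockout thymus 19 of the 22 had a change above 0, with a median of 0.67, and 8 were called higher and 0 lower in a fit of every probe, beside 13.3% of all 35185 probes called higher and 16.8% lower. Racgap1, part of the centralspindlin complex of cytokinesis, rose by 2.43 ± 0.57 at its other probe (limma adjusted p = 0.00601), with a difference of 0.20 ± 0.22 at its brightest (0.517). Cdc25b rose by 2.42 ± 0.47 at its dimmest probe (0.00370), with a difference of 0.11 ± 0.24 at its brightest (0.741). The remaining Cdc25b probe, of mean intensity 10633, had a difference of -0.07. Ect2, the exchange factor that activates RhoA at the furrow, rose by 2.26 ± 0.59 at its other probe (0.00937), with a difference of 0.27 ± 0.56 at its brightest (0.730). Not all called other probes were dim. The other Mki67 probe, of mean intensity 52031, rose by 1.18 ± 0.45 (limma adjusted p = 0.0487), against 0.09 at the brightest. The other Cdca3 probe, of mean intensity 21149, rose by 0.87 ± 0.30 (0.0357), against -0.19 at the brightest.

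The disagreement ran the other way for 2 of the called genes. The other Anln probe, of mean intensity 344, had a difference of -0.39 ± 0.33 (limma adjusted p = 0.370), and the 2 other Top2a probes, of mean intensity 256 and 313, had 0.34 ± 0.32 (0.429) and 0.29 ± 0.47 (0.650). Those 3 probes were well above background on 2 to 5 of 6 arrays in each genotype. Hmmr and Ttk had 1 probe each. In a fit of every probe without p27 knockout replicates 5 and 6, chosen after these values were seen, 4 of the 22 other probes were called higher and 1 lower, beside 6.04% and 8.95% of all probes. Which transcripts each probe reads was not tested.

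**Figure D5:**
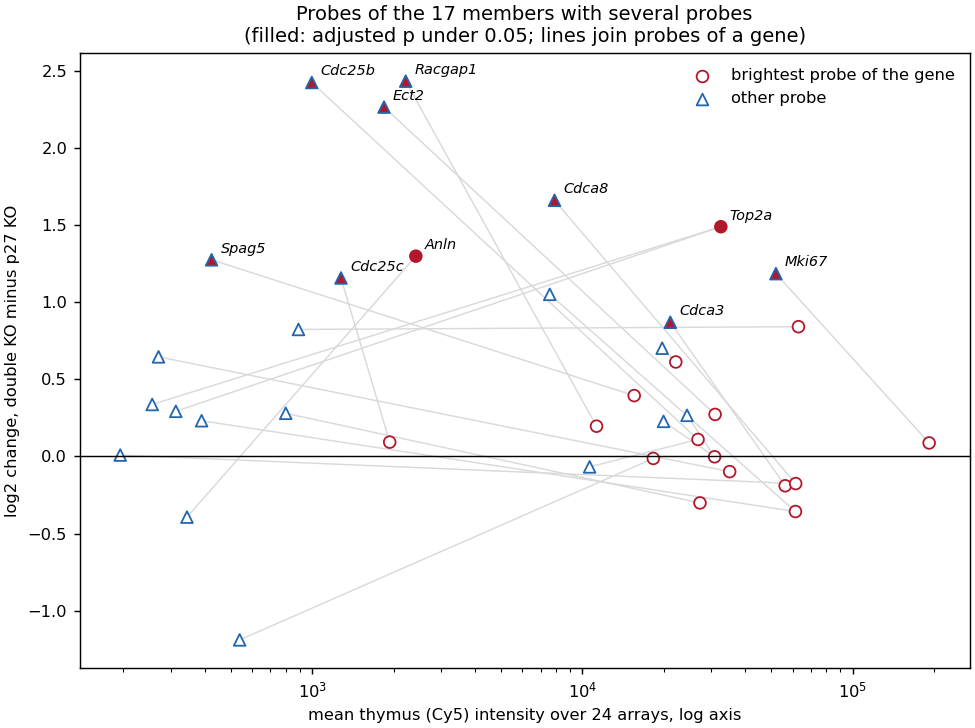
Log2 change in double knockout minus p27 knockout (vertical axis) against mean Cy5 intensity over 24 arrays (horizontal log axis) for every kept probe of the 17 members with several. Circles are the brightest probe of a gene, triangles its other probes, lines join probes of a gene, and filled symbols passed the test; 8 of the 22 other probes did.

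Genes of mitosis outside the 39 were called in the same comparison and in no other. Of 97 listed genes, among them condensins, kinetochore proteins, kinesins and subunits of the anaphase-promoting complex, 91 were measured. Of these, 6 were called higher and 9 lower in double against p27 knockout thymus, against 9.76% and 19.2% of all genes. The 3 with the lowest p were Wee1, the kinase that holds Cdk1 inactive, at 1.99 ± 0.39 (limma adjusted p = 0.00422), Cdca2, which brings a phosphatase to chromosomes at the end of mitosis, at -3.34 ± 0.71 (0.00430) and Cdc16, a subunit of the anaphase-promoting complex, at -0.87 ± 0.20 (0.00567). Of 47 DNA replication genes 46 were measured, 5 of them called higher and 2 lower in the same comparison and 0 in the others. E2f1, which switches on genes of the S phase, changed by -0.76 ± 0.21 (0.0125), Ccne1, cyclin E1, by -0.70 ± 0.19 (0.0136) and Cdc45, a part of the replicative helicase, by 1.96 ± 0.57 (0.0161).

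Marker lists of other cells also held called genes in the same comparison, in which 9.76% of all genes were called higher and 19.2% lower. Of 8 fibroblast genes 8 were below 0 in double against p27 knockout thymus and 5 were called lower, with a median change of -0.95. The median log2 ratio of that list ran from -3.95 to -2.74 over double knockout arrays and from -3.35 to -1.19 over p27 knockout arrays. Of 8 adipocyte genes 8 were above 0 and 3 called higher, with a median change of 1.21. The list's median ran from 3.83 to 5.04 over double knockout arrays and from -0.17 to 4.82 over p27 knockout arrays. Of 9 early thymocyte genes 7 were above 0 and 2 called higher, with a median change of 0.45. That list ran from 1.36 to 2.77 in the double knockout and from -0.23 to 2.75 in the p27 knockout. Of 11 genes of double-positive thymocytes 0 were called, with a median change of -0.07. That list ran from 6.36 to 7.12 over double knockout arrays and from 0.33 to 8.12 over p27 knockout arrays. Replicate 6 of the p27 knockout held the 0.33, and its other arrays stood at 7.22 or more, above every double knockout array. Of 7 endothelial genes 5 were above and 2 below 0, and 3 were called higher, with Tek at 1.67 ± 0.34 (limma adjusted p = 0.00424). Of 8 genes of thymic epithelium 5 were above and 3 below 0, and 2 were called higher, with Foxn1 at 1.36 ± 0.27 (0.00422). Of 7 macrophage genes 7 were above 0 and 2 called higher, with C1qa at 1.70 ± 0.42 (0.00767). Of 7 skeletal muscle genes 6 were above and 1 below 0, and 1 was called higher, Actn3 at 2.84 ± 0.70 (0.00764). Of 8 genes of mature T cells 1 was called higher, Foxp3 at 0.92 ± 0.31 (0.0333), and 1 lower, Cd44 at -1.33 ± 0.41 (0.0225). Of 6 measured B cell genes and 6 measured erythroid genes 0 were called. The part of these lists in the members' changes was not tested.

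Across mice the members varied together in part. After removal of the genotype means, over the 22 arrays without p27 knockout replicates 5 and 6, the median correlation between 2 members was 0.38 and that of a member with the median of the others was 0.59. These arrays share the reference pool and the normalization, so the values are descriptions. The median of the members correlated by 0.75 with that of the DNA replication genes, by 0.40 with that of the double-positive thymocyte genes and by -0.39 with array brightness. For comparison, the median gene on the array correlated by 0.04 with the member median. Tpx2, which activates Aurka on the spindle, followed the others most closely (0.89), then Ccna2, cyclin A2 (0.83), and Melk (0.81), while Pttg1 stood apart at -0.21.

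Among the genes called between double and p27 knockout, Top2a, Anln and Hmmr varied together. Top2a correlated by 0.91 with Anln, by 0.90 with Hmmr and by 0.89 with Cdk1, and by -0.50 with Incenp. Hmmr correlated by 0.89 with Anln and by 0.30 with the median of the other members, and Top2a by 0.29 with its own such median. Incenp in turn was closest to Birc5, survivin, its partner in the passenger complex, at 0.87, and to Cenpe at 0.77. Array brightness correlated by -0.09 with Hmmr, -0.18 with Top2a and -0.26 with Anln, and by -0.49 with Incenp, -0.28 with Birc5 and -0.62 with Cenpe. Hmmr had the lowest mean Cy5 intensity of the 39 brightest probes, at 1732 units. The probes of Ttk and Anln were dim too, at 2238 and 2418 units, against a median of 28322 over the 39. The brightest Top2a probe averaged 32534 units.

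The 5 genes outside the 39 with the highest correlation to the member median over the same 22 arrays, of 24236 measured on all of them, were Mastl, Zwilch, Kif20a, Kif2c and Brd8, at 0.81, 0.81, 0.81, 0.80 and 0.79. Mastl is the Greatwall kinase, Zwilch a kinetochore protein of the spindle checkpoint, Kif20a and Kif2c mitotic kinesins, and Brd8 a bromodomain protein of a histone acetyltransferase complex.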

How the data were processed

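Two-colour Agilent arrays of 24 thymi were read with the group and replicate number of each mouse taken from the labels. Per the file headers, Agilent Feature Extraction 9.1.3.1 gave the deposited spot and local background intensity in each channel. The deposited log10 ratios (Cy5 over Cy3) were dye-normalized by the authors, per the file headers. A table of log2 values was deposited too, made by steps the sources used here do not give. Against the arrays, its lowest correlation was 0.980 with mean log2 brightness and its highest 0.0670 with the log2 ratio, so it follows spot brightness, with its centring unknown, and it served as an alternative only. Its column medians, replicates 1 to 6, in double knockout mice were 9.48, 9.42, 9.53, 9.27, 9.24 and 9.39. In p27 knockout mice they were 8.83, 8.82, 8.96, 9.18, 8.80 and 8.64, in stathmin knockout mice 10.6, 9.56, 8.96, 9.19, 9.28 and 9.28, and in wild-type mice 9.37, 9.45, 9.41, 8.73, 9.82 and 9.29.

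From these intensities limma 3.58.1 (R 4.3.3) gave log2 ratios, by normexp background correction (offset 50), loess within each array with control spots at no weight, spots the scanner marked as outliers left out, and spots of a probe averaged. Probes whose Cy5 signal the scanner put well above background on 6 or more of 24 arrays were kept (35185 of 41174), which was so for the members' brightest probes on 23 arrays or more, and the brightest probe stood for its gene. Of the probes, 22951 took their symbol from the GRCm38.p6 gene table by accession and 18223 kept the file's name. The number of arrays limits the precision.

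limma's moderated test was fitted on all 24 arrays with genotype as the only term, and p-values were adjusted by Benjamini-Hochberg over 24783 genes (threshold 0.05). Every adjusted p is limma's. Changes are first-named minus second-named genotype. The test was run on simulated data first. The members, the gene lists, the motifs and the alternatives were chosen with earlier results of these data known. Values are given for every member with an adjusted p under 0.05 and for the 4 with the lowest p in each comparison. Genes named from the other lists are among the 3 of their list with the lowest p. Alternatives were no background correction, the deposited log10 ratios, Cy5 alone, the deposited log2 table, no filter on dim probes, the mean of a gene's probes, every probe, blocks by slide or replicate number, array weights, a brightness covariate, and leaving arrays out.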

Additional observations from a re-analysis of the deposited data

Results flagged for a closer look

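Of 48 groups of 6 mice checked (the member median and 11 named members in each genotype), 8 held an array whose gap to its neighbour passed Dixon's 95% value, where chance flags about 1 in 20 groups, or 2.4 here. In the p27 knockout, replicate 6 had a member median of -0.35 (other arrays 1.11 to 1.57), Cenpe at 0.48 (1.18 to 1.52) and Cdc25b at 1.12 (2.22 to 2.57, 1 array without a value). In the double knockout, replicate 1 had Hmmr at 1.33 (0.45 to 0.72) and replicate 2 had Cenpe at 0.96 (0.84 to 0.88). In the stathmin knockout, replicate 4 had Anln at 0.46 (-0.95 to -0.59) and Aurka at 0.84 (0.36 to 0.52). In wild type, replicate 4, the dimmest array of its genotype, had Ccnb2 at 1.01 (0.55 to 0.66). Values are log2 ratios, and the cause was not tested.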

How the results depend on the processing

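Double knockout against wild type, stathmin knockout against wild type, double against stathmin knockout and the interaction had 0 members called under every alternative run, leaving out single mice included. For double against p27 knockout, 37 members were called from the deposited table (all higher, with a median change of 1.08, beside 51.1% of all genes called higher), 12 when every probe was tested (all higher, beside 13.3% of all probes), 7 from the mean of a gene's probes (all higher, beside 11.5% of all genes), 2 without p27 knockout replicates 5 and 6 (1 higher, 1 lower, beside 4.07% and 10.6%) and 0 with the brightness covariate (0% of all genes). Array weights gave 8, of which 2 (Hmmr and Ttk) were higher and 6 lower (Incenp, Cenpf, Foxm1, Cenpe, Mki67 and Plk1), beside 11.2% and 23.3% of all genes, with weights of 0.049 and 0.154 for p27 knockout replicates 6 and 5. Every probe tested without those replicates, an alternative chosen after seeing the data, gave 7. Of these Hmmr, Cdc25b, Cdc25c, Racgap1 and Spag5 were higher and Incenp and Nuf2 lower, beside 6.04% of all probes called higher and 8.95% lower. Leaving out single mice gave 1 to 7: without p27 knockout replicate 5 Hmmr was called (6.84% of all genes higher, 14.8% lower), and without replicate 6, 2 members were higher and 5 lower (8.46% and 19.5% of all genes). Hmmr was called without any 1 of the 24 mice (adjusted p 0.00427 to 0.0187), Anln lost its call without 1 mouse, Ttk without 3 and Top2a without 8. For p27 knockout against wild type, the deposited table called 9 members, all lower, beside 17.4% of all genes, and array weights 5, all higher (Incenp, Foxm1, Plk1, Aurka and Cenpf), beside 9.51%. Leaving out single mice gave 0 to 3 there, with 3 (1 higher, 2 lower) without p27 knockout replicate 1 (7.87% of all genes higher, 2.48% lower) or wild-type replicate 6 (7.17% and 2.61%). The deposited table, which follows brightness, turned the sign of Cenpe in the double knockout against wild type (0.19), of Foxm1 and Pttg1 in the p27 knockout against wild type (-0.54 and -0.43), of Nuf2, Aurka and Cenpe in the stathmin knockout against wild type (0.13, 0.11 and 0.13), and of the Pttg1 interaction (0.52). In it all genes shifted by a median of 0.68 in double against p27 knockout, against -0.16 in the main setting. The causes were not tested. Replicate numbers did not pair the mice: same-numbered arrays correlated by a median of -0.10 to 0.23, and 3 of 24 were closest to an array of their own number. With replicate number as a block, 4 members were called in double against p27 knockout and 0 in the other comparisons. These 4 were those of the main setting, where 9.76% of all genes were called higher. The share of all genes in the blocked fit is not given here.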
